A study of Homo sapiens with 6 samples.

Results

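Small RNAs that laboratories commonly use as references were followed across 6 arrays of colorectal cancer cells. They were the U6 small nuclear RNA, read by 2 probes (RNU6-1_RNU6-2 and RNU6-1), and the human (hsa) miRNAs hsa-miR-191-5p, hsa-miR-103a-3p and hsa-miR-423-5p, written below without the prefix. The 5 probes were chosen by name alone, out of 1914 probes on the array for human miRNAs and other human small RNAs. Counts of the 5 reference RNAs below are counts of these probes, so U6 enters them by 2 probes. The arrays came from 3 lines, Lovo, SW620 and HT29. In each line a knockdown culture carried the vector shRNA-TGF-β1-pSUPER gfp-neo, with a short hairpin RNA against TGF-β1, and a control culture carried shRNA-Control-pSUPER gfp-neo. All cultures were thus stably transfected with a pSUPER gfp-neo vector, and each was measured once. The labels do not say whether a culture was 1 clone or a pool. The design compares knockdown with control within each line.

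U6 is the small nuclear RNA at the catalytic core of the spliceosome and is made by RNA polymerase III. miRNAs are cut from hairpin precursors, loaded onto Argonaute proteins and pair with messenger RNAs mainly through their seed, the stretch next to the 5′ end. A reference RNA is one whose level is taken to be constant, so that dividing by it removes differences in input and labelling between samples, and any change in the reference itself is carried into every other measurement.

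The mature sequences, from RefSeq (GRCh38.p14), are shown because the array reads each miRNA by hybridisation, where close relatives matter. The capitals mark the seed, bases 2 to 8 from the 5′ end. The probe sequences are not used here.
miR-191-5p: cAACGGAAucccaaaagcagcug
miR-103a-3p: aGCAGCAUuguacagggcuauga
miR-107: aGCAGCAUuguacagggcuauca
miR-423-5p: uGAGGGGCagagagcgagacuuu
miR-3184-3p: aAAGUCUCgcucucugccccuca

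miR-191-5p lies at chr3:49020672-49020694 on the minus strand, in MIR191, which overlaps the genes DALRD3 and NDUFAF3 and is 383 bases from MIR425. Its seed was shared with 0 others of 2370 human mature miRNAs in the RefSeq table. miR-103a-3p is encoded at 2 places, chr5:168560904-168560926 on the minus strand within PANK3 and at chr20:3917541-3917563 on the plus strand within PANK2. Its seed was shared with miR-107 (chr10:89592756-89592778, minus strand), and the only difference between both sequences was G22C, counted from the 5′ end of miR-103a-3p with its base first. How far each probe also reads the other miRNA was not tested. miR-423-5p lies at chr17:30117095-30117117 on the plus strand within NSRP1, and miR-3184-3p, from the opposite strand, is its full reverse complement. The seed of miR-423-5p was shared with miR-3184-5p, from the same gene as miR-3184-3p. In the same way, miR-103b is the full reverse complement of miR-103a-3p. RNU6-1 and RNU6-2 are each 107 bases long, at chr15:67839939-67840045 and chr19:1021522-1021628.

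The values are spot intensities, and the signal of a probe is foreground minus background, as the median of its 4 spots. A probe was called detected where this signal was at least 50. Between 398 and 542 human miRNA probes were detected per array. The Lovo knockdown array stood apart, with the lowest median background (86, against 138 to 202 on the others) and the lowest correlation, across probes, with the remaining arrays (mean r 0.681, against 0.743 to 0.810). Groups follow the sample titles. Another label names the control vector for the HT29 knockdown sample and the knockdown vector for the Lovo control sample, so that only the SW620 labels all point one way. TGFB1 messenger RNA is not read by these probes, so the knockdown was not checked here. Of 8 gut epithelial marker miRNAs on the array, 8 and 6 were detected in Lovo knockdown and control cells, 1 and 2 in SW620, and 1 and 0 in HT29. Their summed signals were 8810.5, 102.5 and 137.5 in Lovo, SW620 and HT29 knockdown cells, against 1370, 386 and 32.5 in control cells. In Lovo knockdown cells miR-141-3p alone had 4531. miR-200b-3p (159 in knockdown and 201.5 in control cells) and miR-375 (386 and 494) were lower in Lovo knockdown, and the other epithelial markers higher. miR-375 also held much of the SW620 sums (64 and 255.5) and of the HT29 knockdown sum (100). Blood cell marker miRNAs (7 on the array) had summed signals of 428, 1407 and 571.5 in Lovo, SW620 and HT29 knockdown cells, against 766.5, 1798 and 3267.5 in control cells. Fibroblast and smooth muscle markers (4 on the array) summed to 334.5, 1342.5 and 1776.5 in knockdown cells, against 2544, 4777 and 4509.5 in control cells. The blood and fibroblast sums were lower in knockdown in each line, as the signals of miR-103a-3p and RNU6-1 were, and their part in those results was not tested. Single probes held much of these sums: miR-142-3p had 2645 of the HT29 control sum and miR-199a-5p 4334.5 of the SW620 control sum. Other markers went the opposite way, such as miR-150-5p in Lovo (249 in knockdown and 124 in control cells), miR-486-5p in Lovo (149 and 72) and miR-214-3p in SW620 (391 and 261.5). Each sample is a culture of 1 colorectal line, and the list names do not mean that blood cells or fibroblasts were present. In RNA from whole cultures, fewer cells that hold an RNA and less of it per cell cannot be told apart.

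Across the 3 lines, none of the 5 reference RNAs passed the test between knockdown and control. The fit was limma on quantile-normalised log2 values with the line as a block, and it called 0 of 589 detected small RNAs at an adjusted p under 0.05 (0% called). At an unadjusted p under 0.05 it had 8 probes higher (1.36%) and 48 lower (8.15%) in knockdown, and 0 of these were reference RNAs. For 4 of the 5 reference RNAs the mean was below 0, as it was for 45.7% of the 589. With robust variance moderation limma called 22 probes and without the HT29 pair 21, again none of them a reference RNA. Without the Lovo pair, whose knockdown array stood apart, the differences were -0.21 (RNU6-1_RNU6-2), -0.20 (RNU6-1), -1.56 (miR-191-5p), -0.70 (miR-103a-3p) and -0.05 (miR-423-5p). With 2 residual degrees of freedom before moderation, the intervals were wide: for each of the 5 RNAs the 95% interval of the difference reached past 0 on both sides.

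**Figure D1:**
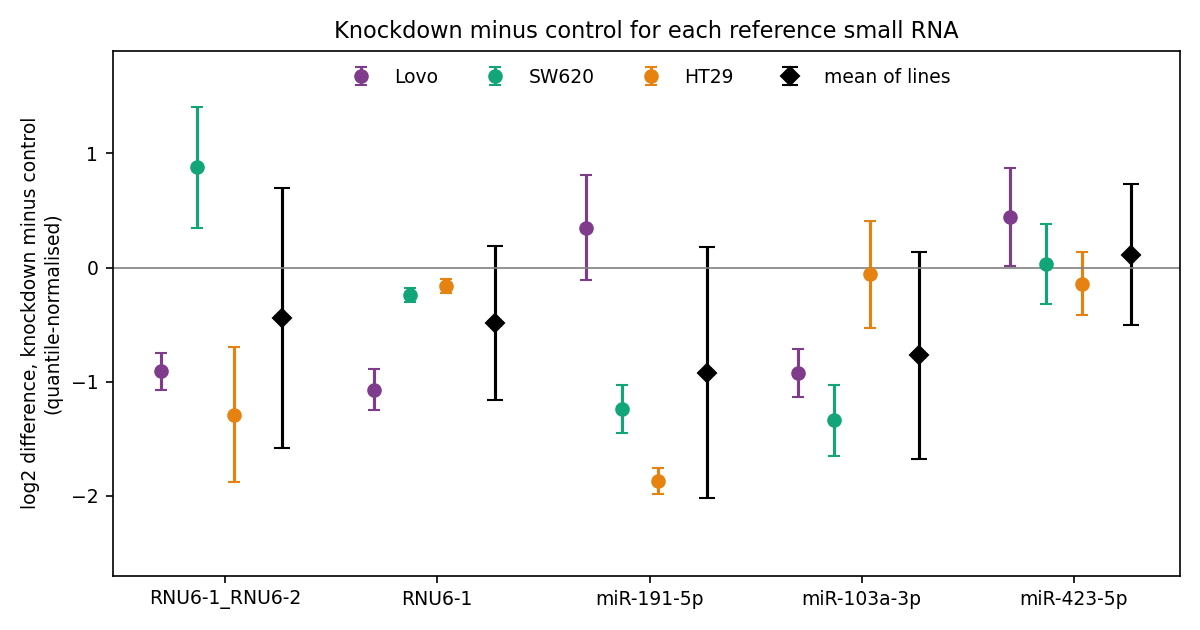
Log2 difference, knockdown minus control, of quantile-normalised values for each reference small RNA, with 1 point per line and the limma mean with its 95% interval. Bars of the points are the SE over the 4 spots, from log2 values before normalisation. Every interval crosses 0, and the points of RNU6-1_RNU6-2 lie on both sides of 0, with SW620 (0.88) above it and Lovo (-0.91) and HT29 (-1.29) below.

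U6, read by the probe RNU6-1_RNU6-2, was bright on every array. Its signal was 556, 2782 and 948.5 in Lovo, SW620 and HT29 knockdown cells, against 1248, 1660.5 and 4492 in the matched control cells. Knockdown was the dimmer of the pair in Lovo and HT29 and the brighter in SW620, and the groups overlapped. Relative to control, the normalised log2 value differed by -0.91 in Lovo, 0.88 in SW620 and -1.29 in HT29. The errors over the 4 spots were 0.16, 0.53 and 0.59 (SE, technical only). These and the spot errors below were taken from log2 values before normalisation. Over the lines the difference was -0.44 ± 0.50 (limma SE, n = 3 pairs), with a 95% interval of -1.58 to 0.70 and an adjusted p of 0.763. Whether the lines differ in this was not tested, since there was 1 array per line and vector.

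The spots of this U6 probe did not give 1 value per array. Each probe has 2 spots in blocks 1 to 18 of the array and 2 in blocks 19 to 36, and their median signals are given in that order. On the SW620 knockdown array they were 1968.5 and 3375, and on the SW620 control array 2371.5 and 737. The HT29 knockdown array had 1797.5 and 330, a 5.45-fold gap. Taken from blocks 1 to 18 alone, the unnormalised log2 difference in SW620 was -0.22, and from blocks 19 to 36 alone it was 2.08, so its sign turned. In HT29 it was -0.88 and -3.46, below 0 in both sets of blocks. Such a turn of sign between the sets was found in SW620 for 36.8% of the probes detected on both of its arrays.

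The probe RNU6-1, named after a single U6 gene, was dim. Whether it tells the U6 genes apart was not tested. Its signal was 9.5, 77 and 143 in Lovo, SW620 and HT29 knockdown cells, against 149.5, 160.5 and 226.5 in control cells. All 3 knockdown signals lay below all 3 control signals, as they did for 13.1% of the 589 small RNAs tested. It was not detected on the Lovo knockdown array, where the control value was at least 1.78-fold higher, against the dimmest detected signal. After quantile normalisation the groups overlapped, and the difference was -0.49 ± 0.30 (limma SE, n = 3 pairs), with an interval of -1.16 to 0.19 and an adjusted p of 0.579. The 2 U6 probes thus had the same sign of difference in Lovo and HT29 and opposite signs in SW620, where RNU6-1 differed by -0.24 after normalisation.

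miR-191-5p, a miRNA often found steady in human tissues, had signals of 388.5, 313.5 and 79 in Lovo, SW620 and HT29 knockdown cells, against 311.5, 845.5 and 1148.5 in control cells. The highest of the 6 signals was 14.5 times the lowest, the widest range among the 3 reference RNAs detected on every array. Knockdown was the dimmer of the pair in SW620 and HT29 and slightly brighter in Lovo. The normalised difference was 0.35 in Lovo, -1.24 in SW620 and -1.87 in HT29, with spot errors of 0.46, 0.21 and 0.11 (SE). Over the lines it was -0.92 ± 0.49 (limma SE, n = 3 pairs), with an interval of -2.02 to 0.18 and an adjusted p of 0.571. In Lovo control cells the spots in blocks 1 to 18 gave 93.5 and those in blocks 19 to 36 gave 532.5, so the small Lovo difference took opposite signs in the 2 sets. In HT29 both sets put knockdown lower, by log2 values of -2.48 and -2.25 before normalisation.

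Before normalisation miR-103a-3p had the smallest spread of the 5 probes among the control cultures, and its signal was lower in all 3 knockdown cultures. This miRNA sits in introns of pantothenate kinase genes and, with miR-107, targets DICER1 among others. Its signal was 194, 161 and 295 in Lovo, SW620 and HT29 knockdown cells, against 510.5, 527 and 539 in control cells. The groups did not overlap, either in signal (13.1% of the 589 had knockdown lower in this way) or after quantile normalisation (9.17%). Its SD over the unnormalised log2 values was 0.50 in knockdown cells and 0.14 in control cells (n = 3 each). After quantile normalisation the SD in control cells was 0.25, above that of RNU6-1 (0.14). The normalised difference was -1.34 in SW620 and -0.92 in Lovo. In HT29 it was -0.06, against -0.47 before normalisation, with a spot error of 0.47 (SE). A spot of the HT29 knockdown array read 1226, and the rest read 129 to 352. Over the lines the difference was -0.77 ± 0.40 (limma SE, n = 3 pairs), with an interval of -1.68 to 0.14 and an adjusted p of 0.571. It was below 0 in both sets of blocks in each line, from -1.58 to -0.20 before normalisation.

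miR-423-5p was dim on every array. Its signal was 96.5, 69 and 59 in Lovo, SW620 and HT29 knockdown cells, against 45, 88 and 97.5 in control cells. It was not detected on the Lovo control array. The Lovo knockdown value was 1.36-fold higher than the value read there, a log2 difference of 0.44 with a spot error of 0.43 (SE). Elsewhere the groups overlapped. The normalised difference was 0.44, 0.03 and -0.14 in Lovo, SW620 and HT29, and over the lines 0.11 ± 0.27 (limma SE, n = 3 pairs; interval -0.50 to 0.73; adjusted p 0.896).

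**Figure D2:**
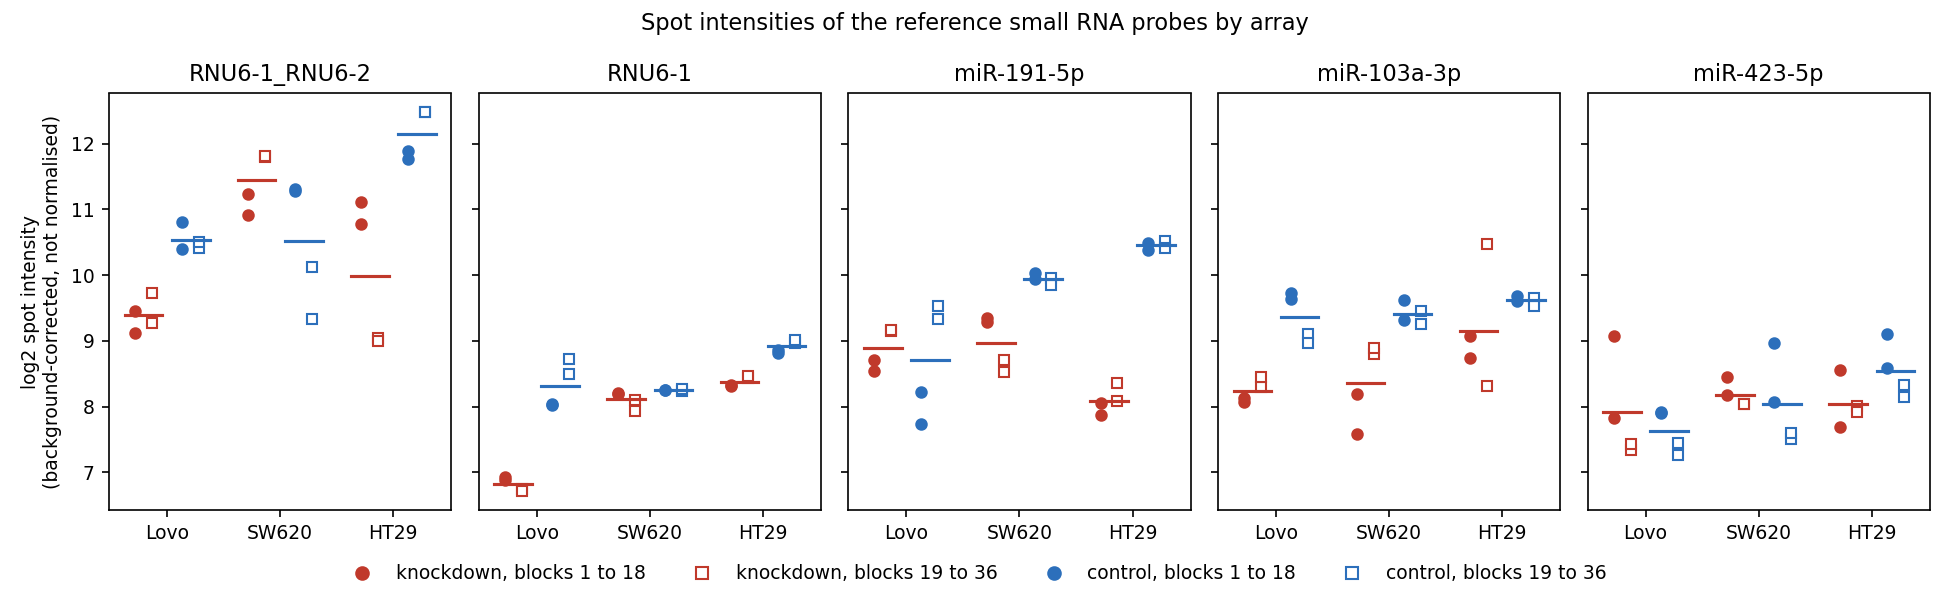
Background-corrected log2 intensity of each spot, not normalised, with 1 panel per probe and, in each line, the knockdown array (red) left of the control array (blue). Circles are spots in blocks 1 to 18, squares spots in blocks 19 to 36, and the bar is their mean; circles and squares lie apart for RNU6-1_RNU6-2 on the SW620 control and HT29 knockdown arrays.

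Among probes detected on both arrays of a line, a gap of at least 2-fold after normalisation was looked for, and 0 reference RNAs qualified in Lovo, where 7.57% of 423 probes were lower and 4.73% higher. In SW620, miR-191-5p and miR-103a-3p were lower, among 8.09% of 383 probes that were, and no reference RNA was among the 6.79% that were higher. In HT29, RNU6-1_RNU6-2 and miR-191-5p were lower, among 8.18% of 330, and again none was among the higher 6.36%. In signal before normalisation, 3 of the 5 were lower in Lovo knockdown cells (45.7% of the 589 tested), 4 in SW620 (63%) and all 5 in HT29 (51.3%). RNU6-1 and miR-103a-3p were lower in all 3 lines, by signal (20.2% of the 589) and after normalisation (16.8%). No reference RNA had its knockdown group wholly above the control group, as 4.41% had in signal and 7.3% after normalisation.

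Between lines no reference RNA passed either: in the limma F-test over the 3 lines, 0 of 589 probes had an adjusted p under 0.05 (0% called), 31 had an unadjusted p under 0.05 (5.26%), and the adjusted p of the 5 lay between 0.944 and 0.976. The U6 probe RNU6-1_RNU6-2 averaged 10.05 in Lovo, 11.01 in SW620 and 10.68 in HT29 on the normalised log2 scale, with SDs of 0.65, 0.62 and 0.91 (n = 2 each, which differ in vector). miR-191-5p averaged 8.92, 9.50 and 9.09, with SDs of 0.25, 0.88 and 1.33, and miR-103a-3p 8.87, 9.04 and 9.21, with SDs of 0.65, 0.95 and 0.04. For miR-191-5p and miR-103a-3p the arrays of every pair of lines overlapped. For RNU6-1_RNU6-2 the arrays read 9.60 in knockdown and 10.51 in control cells of Lovo, 11.45 and 10.57 in SW620, and 10.03 and 11.33 in HT29. RNU6-1 averaged 7.78, 8.21 and 8.49 in Lovo, SW620 and HT29, with SDs of 0.75, 0.17 and 0.11. miR-423-5p averaged 7.90, 8.14 and 8.15, with SDs of 0.31, 0.02 and 0.10.

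How steady each reference was can be read beside all human small RNAs. Among the 267 detected on all 6 arrays, the SD of the unnormalised log2 value had a median of 0.44 and a range of 0.13 to 2.21. The SD of RNU6-1_RNU6-2 was 0.99 and 95.5% of the others were more even. For miR-191-5p it was 0.87 (92.5% more even) and for miR-103a-3p 0.58 (71.1%). After quantile normalisation the SDs were 0.72, 0.77 and 0.54, against a median of 0.42, and the shares more even 89.1%, 91% and 70.3%. The remaining 2 were not detected on 1 array each and have no rank; their unnormalised SDs were 0.70 (RNU6-1) and 0.30 (miR-423-5p). The most even of the 267 by unnormalised SD were miR-2355-5p and miR-4685-3p (0.13 each), miR-4795-3p (0.14), miR-550a-3p (0.15) and miR-4317 (0.16). Their signals ran from 121 to 196, 748.5 to 1006.5, 248 to 383.5, 116.5 to 209 and 50 to 148.5, in that order. The last thus reached down to the detection limit. The offset of 50 in the background correction narrows the log2 spread of dim probes, and how far brightness set the ranks was not tested. After quantile normalisation these 5 had SDs of 0.17, 0.34, 0.17, 0.16 and 0.16. That rank was read from the same arrays, and miR-5100, which quantile normalisation makes constant, was left out of it.

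**Figure D3:**
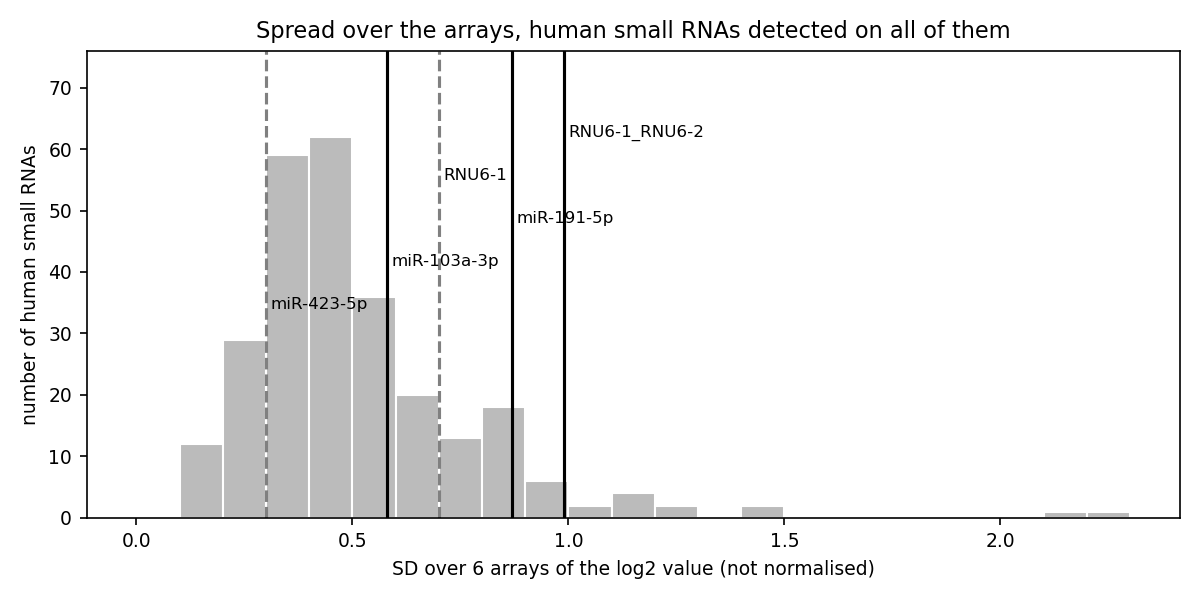
Histogram of the SD over 6 arrays of the unnormalised log2 value for 267 human small RNAs detected on all of them, with vertical lines for the reference RNAs (dashed where not detected on 1 array). RNU6-1_RNU6-2 (0.99) and miR-191-5p (0.87) lie to the right of the median (0.44), as does miR-103a-3p (0.58).

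Pairs of reference RNAs differed in how evenly their ratio held over the arrays. The SD over the arrays of the log2 ratio of 2 of them ran between 0.41 (RNU6-1 and miR-103a-3p) and 0.92 (RNU6-1_RNU6-2 and miR-103a-3p). Among the 3 detected on all 6 arrays, the mean SD of a member's ratios to the others was 0.86 for RNU6-1_RNU6-2, 0.79 for miR-191-5p and 0.86 for miR-103a-3p. The small RNAs with the most similar profile over the 6 arrays, by Pearson's r of normalised values as a description, were miR-10b-5p (0.937) for RNU6-1_RNU6-2, miR-4288 (0.947) for miR-191-5p and miR-206 (0.983) for miR-103a-3p. The next most similar were miR-4669 and miR-891a, miR-23b-3p and miR-4791, and miR-138-2-3p and miR-4286, in the same order of references. The 6 arrays come from 3 lines, so the points are not independent.

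The U6 probe followed the spike control probes of the array. The median signal of the 16 spike probes detected on every array was 342.75, 1611.5 and 700.5 in Lovo, SW620 and HT29 knockdown cells, against 492.25, 919.5 and 3863.25 in control cells, an 11.3-fold range. The ratio of the U6 signal to the spike median, read for its change between arrays and not as a level, was 1.62, 1.73 and 1.35 in knockdown cells, against 2.54, 1.81 and 1.16 in control cells. Its log2 ratio to the spikes had an SD of 0.46, and 100% of the other small RNAs detected on all 6 arrays had a larger one. The same SD was 0.91 for miR-191-5p, 1.13 for miR-103a-3p, 0.97 for miR-423-5p and 0.86 for RNU6-1. The labels do not state whether spike RNAs were added to the samples, or in what amount. What part of the spread of U6 they share was not tested.

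**Figure D4:**
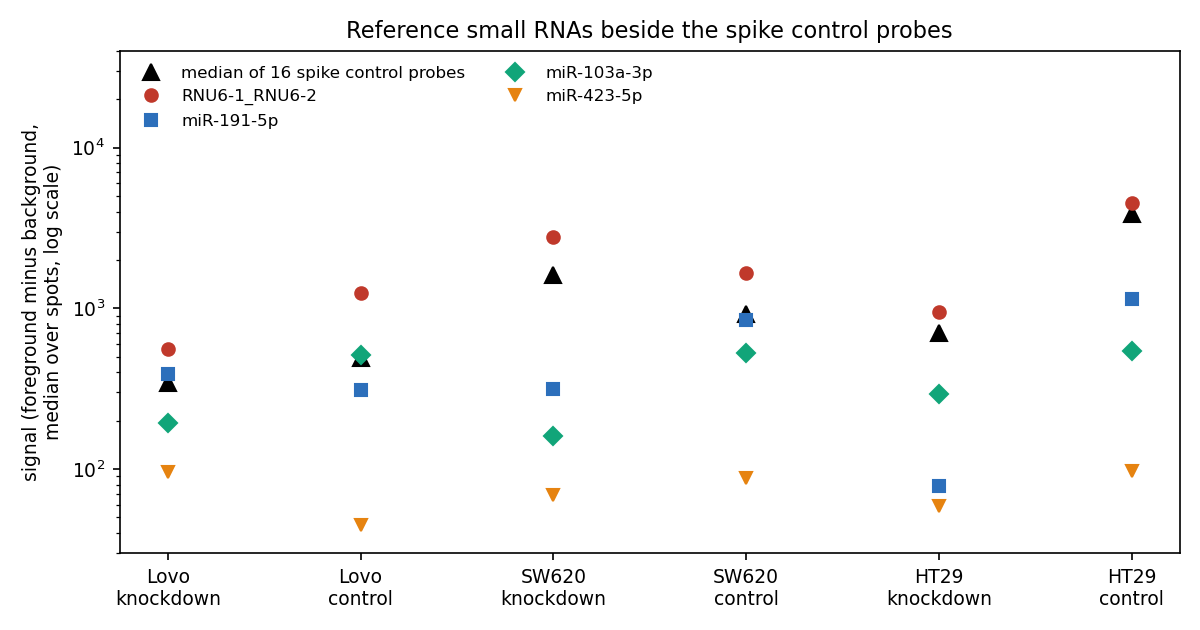
Signal on a log scale (foreground minus background, median over spots) of RNU6-1_RNU6-2, miR-191-5p, miR-103a-3p and miR-423-5p on each array, beside the median of the 16 spike control probes, knockdown left of control in each line. RNU6-1_RNU6-2 and the spike median are both highest in HT29 control cells (4492 and 3863.25) and lowest in Lovo knockdown cells (556 and 342.75).

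The authors' own scaling did not lean on U6. The authors' deposited table holds each probe's median signal divided by 1 factor per array, which ran from 282.75 to 353.75 with an SD of 0.11 on the log2 scale. On every array the factor equalled the median signal of the same 330 named miRNA probes, those with a signal of at least 30 on all 6 arrays, within 1.68e-09%. miR-191-5p, miR-103a-3p and miR-423-5p are among the 330 and the U6 probes are not. In the authors' deposited table the log2 ratio of knockdown over control in Lovo, SW620 and HT29 was -1.09, 0.42 and -2.17 for RNU6-1_RNU6-2, 0.40, -1.75 and -3.79 for miR-191-5p, and -1.31, -2.03 and -0.80 for miR-103a-3p.

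What each of the 3 detected on all 6 arrays would do as a reference was computed by subtracting its own log2 value from every other probe on each array, in place of quantile normalisation. RNU6-1 and miR-423-5p, each not detected on 1 array, were not run as references. The counts are of probes at least 2-fold higher and lower in knockdown cells, among those detected on both arrays of a line. Quantile normalisation gave 20 higher and 32 lower in Lovo, 26 and 31 in SW620, and 21 and 27 in HT29. On U6 (RNU6-1_RNU6-2) they were 208 and 5 in Lovo, 3 and 125 in SW620, and 283 and 3 in HT29. On miR-191-5p they were 10 and 68, 241 and 2, and 299 and 1. On miR-103a-3p they were 202 and 5, 255 and 2, and 18 and 31. The mean of the 3 gave 89 and 11 in Lovo, 97 and 6 in SW620, and 243 and 6 in HT29. Since the same amount is subtracted from every probe of an array, the reference's own difference shifts all other differences of a line by construction. The split also depends on where those differences lay before scaling. In HT29 the own difference of miR-103a-3p was -0.47, and more probes were still lower than higher. Without any scaling HT29 had 1 higher and 58 lower.

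**Figure D5:**
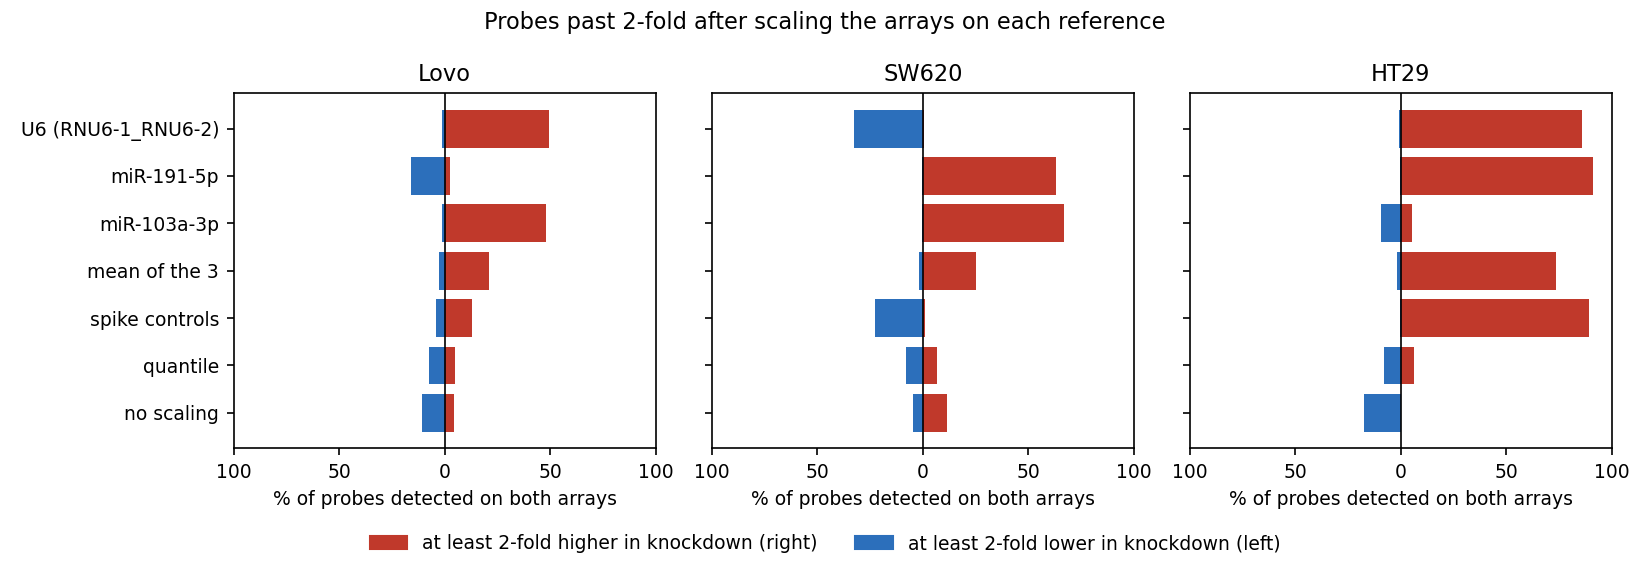
Share of probes detected on both arrays that were at least 2-fold higher (to the right) or lower (to the left) in knockdown cells, in percent, with 1 panel per line and 1 row per scaling. Scaling on U6 puts nearly all such probes higher in Lovo and HT29 (208 and 283) and lower in SW620 (125).

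Across the lines the median difference over all other tested probes moved to 0.67 after scaling on RNU6-1_RNU6-2, 0.93 on miR-191-5p, 0.76 on miR-103a-3p and 0.78 on the mean of the 3, against 0.04 after quantile normalisation. The share of probes above 0 was 85.5%, 92.3%, 88.1% and 89%. Tested by limma as before, scaling on each of the 3 single references called 0 probes at an adjusted p under 0.05, with 1, 2 and 165 probes higher and 0, 0 and 2 lower at an unadjusted p under 0.05. Scaling on their mean called 2 probes, both higher in knockdown. They were miR-4711-3p, by 2.77 ± 0.56 (limma SE, adjusted p 0.000525), and miR-141-3p, by 2.04 ± 0.48 (adjusted p 0.00622). The difference of miR-4711-3p was 0.57 in Lovo, 5.4 in SW620 and 2.34 in HT29. The median over probes detected on both arrays was 0.54, 0.54 and 1.43 under this scaling, so in Lovo miR-4711-3p lay near the median. miR-141-3p was detected on the 2 Lovo arrays only, and its difference was 4.25 in Lovo, 1.15 in SW620 and 0.73 in HT29. With 1 pair of arrays left out, scaling on the mean called 0 to 1 probes. Scaling on miR-191-5p called 164 without the Lovo pair, and scaling on miR-103a-3p called 303 without the HT29 pair. Before normalisation, miR-191-5p's own differences in the pairs kept were -0.98 in SW620 and -2.36 in HT29. For miR-103a-3p they were -1.12 in Lovo and -1.05 in SW620. The reference's own difference enters every probe alike, so counts after scaling, adjusted or not, are not separate results for each probe. The median after scaling on RNU6-1_RNU6-2 ran between 0.09 and 1.4 over the left-out pairs, with 0 calls in each.

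SNORD6, a small nucleolar RNA, had the lowest unnormalised SD (0.20) of the other reference candidates detected on all 6 arrays, though not the lowest after quantile normalisation (0.38, against 0.34 for SNORD13). It shows the effect of the choice on 1 probe. Its signals lay between 469 and 1138. Scaled on U6 its log2 difference was 1.47 in Lovo, -0.78 in SW620 and 2.17 in HT29. On miR-191-5p it was 0.14, 1.12 and 2.37, and on miR-103a-3p 1.45, 1.19 and 0.47. With quantile normalisation it was 0.62, -0.19 and 0.38. In SW620 its sign thus differed between scaling on U6 and scaling on either miRNA.

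The precursor partners and near relatives of the reference miRNAs, 9 entries, had 5 tested probes. None passed, 3 were below and 2 above 0, and their median difference was -0.02, against 0.04 over all tested. miR-423-3p, from the other arm of the miR-423 hairpin, differed by 0.04 ± 0.33 and miR-425-3p, from the MIR425 hairpin beside MIR191, by -0.02 ± 0.48 (limma SE, both detected on 6 arrays). miR-107 differed by -0.34 ± 0.26 and was detected on 3 arrays. Of 38 other small RNAs in use as references, 32 were tested and 0 passed, with 6 lower and 0 higher at an unadjusted p under 0.05, beside 8.15% lower and 1.36% higher over all 589. Their median difference was -0.24, against 0.04 over all tested, with 24 below and 8 above 0, beside 45.7% of all tested below 0. Among them the lower ones by value included miR-25-3p (-1.29 ± 0.35), SNORD4A (-1.25 ± 0.44), miR-30c-5p (-1.16 ± 0.41) and let-7a-5p (-1.11 ± 0.41). Differences smaller than their SE included miR-221-3p (-0.01 ± 0.31), SNORD3@ (-0.03 ± 0.73), miR-361-5p (0.21 ± 0.42) and RNU1 (0.22 ± 0.42).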

How the data were processed

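RNA was labelled with Hy3 for 1-colour arrays, per the labels' protocols. Of each of 15840 spots, the deposited table gives 2 intensities, per the file headers: foreground, and foreground minus background. The deposited value table holds a ratio: the authors divided each probe's median signal by 1 factor per array, as established from the values. The scanner and its software are not named in the labels.

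From the intensities, normexp background correction with an offset of 50, log2, the mean over 4 spots and quantile normalisation over 1914 human small RNA probes were computed in limma 3.58.1 (R 4.3.3). Probes with a median signal of at least 50 on at least 2 of 6 arrays were tested (589, of which 570 miRNAs). Knockdown and control were compared by lmFit and eBayes (trend) with the line as a block, because both arrays of a pair share a line, and Benjamini-Hochberg adjustment over all tested probes. The number of arrays limits the precision. Within a line there is 1 array per condition and no test. Cultures were independently grown, per the labels. The members, lists and tests were chosen with earlier results of these data known. Named were the 5 members, precursor partners and other references (lists), and by rule the 3 most alike, the 5 most even and the listed reference with the lowest unnormalised SD; probes called after scaling were named after their values were seen. Alternatives changed background, normalisation, filter, spots, variance model, block and left-out arrays. The knockdown and line fits were checked on simulated data with independent noise. That check does not show how either fit behaves on these arrays, whose noise may differ.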

Additional observations from a re-analysis of the deposited data

Results flagged for a closer look

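RNU6-1_RNU6-2 differed in opposite directions between lines: knockdown minus control was -0.91 in Lovo, 0.88 in SW620 and -1.29 in HT29 on the normalised log2 scale. The SW620 pair lies above 0, and the Lovo pair and the HT29 pair lie below it, so SW620 opposes each of the other lines. With 1 array per condition the difference between lines was not tested. In SW620 the sign was -0.22 in the spots of blocks 1 to 18 and 2.08 in those of blocks 19 to 36, before normalisation.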

How the results depend on the processing

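In the knockdown fit none of the 5 reference RNAs was called in any setting run; the lowest adjusted p was 0.206, and the differences ran from -1.1 to -0.02 for RNU6-1_RNU6-2, -1.96 to -0.04 for RNU6-1, -1.71 to -0.37 for miR-191-5p, -1.38 to -0.20 for miR-103a-3p and -0.05 to 0.65 for miR-423-5p. Only miR-423-5p changed sign: -0.03 without normalisation, -0.05 in the authors' table, -0.03 from blocks 1 to 18 and -0.05 without the Lovo pair. Leaving out a pair gave -1.1 to -0.02, -0.65 to -0.20, -1.56 to -0.45, -1.13 to -0.49 and -0.05 to 0.24 in the same order. Without the line as a block, the replicate block, the knockdown fit called 0 probes, miR-103a-3p scaling 2 and the mean of the 3 called 1. The cause was not tested.

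Over all probes 0 were called as reported, against 5 (cyclic loess), 6 (authors' table), 1 (detected on all 6 arrays), 22 (robust eBayes) and 2 (without miR-5100, whose normalised value is constant; added after seeing the data), and 0 to 21 when a pair was left out, 21 without HT29. Between lines the count was 2 with plain subtraction, 1 with cyclic loess, 1 with spike scaling, 10 with robust eBayes and 0 to 17 when an array was left out.

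Within a line, probes higher and lower by 2-fold were 79 and 77 (plain subtraction), 54 and 17 (spikes), 87 and 59 (authors' table) and 76 and 66 (1.5-fold) in Lovo. In SW620 they were 84 and 58, 4 and 86, 41 and 110, and 85 and 67, with 44 and 18 without normalisation and 40 higher with an offset of 10. In HT29 they were 68 and 50, 295 and 1, 41 and 68, and 83 and 53, with 1 and 58 without normalisation and 12 higher by cyclic loess.

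Plain subtraction moved the SDs to 1.17 (RNU6-1), 1.40 (miR-191-5p), 0.94 (miR-103a-3p) and 0.51 (miR-423-5p), and cyclic loess to 0.19 for miR-423-5p. Leaving out an array gave 0.76 to 1.11 for RNU6-1_RNU6-2, 0.31 to 0.78 for RNU6-1, 0.67 to 0.96 for miR-191-5p, 0.49 to 0.65 for miR-103a-3p and 0.20 to 0.34 for miR-423-5p. Scaling on RNU6-1_RNU6-2 gave medians of 0.09 to 1.4 and 0 to 0 calls without a pair. On miR-191-5p it gave 0 to 164 calls (164 without Lovo) and medians of 0.38 to 1.58, and 1.51 with plain subtraction. On miR-103a-3p it called 20 with plain subtraction, 1 on probes detected on all arrays and 0 to 303 without a pair (303 without HT29), with a median of 1.39 under plain subtraction. The mean of the 3 called 1 with plain subtraction, 32 on probes detected on all arrays and 0 to 1 without a pair, with medians of 1.25 under plain subtraction and 0.51 to 0.93 without a pair. Calls after scaling carry the reference's own value on each array and are not separate results for each probe. Intensities near background limit what miR-423-5p and RNU6-1 can show.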
